A study of Homo sapiens with 34 samples.

Results

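Histones package DNA, and a large set of enzymes and binding proteins writes, removes and reads the marks on them. The m6Am spans of genes of these families were taken from 3 deposited lists by gene name. Names were taken that begin with HIST, CHD, BRD, ING, KAT or TET followed by a digit. Names that begin with H2AF, H3F3, KDM, KMT, SETD, HDAC, SIRT, SMARC, PHF, CBX, PRMT, ARID, DNMT or PRDM were taken too. The list for unstressed HEK293T cells, a human embryonic kidney cell line, held 41 such spans of 1652, under 39 distinct names. The hypoxia list held 12 of 390 and the heat shock list 1 of 74. In m6Am-seq, capped RNA fragments are selected with an m7G antibody, part of them is treated with the demethylase FTO, and both parts are enriched with an m6A antibody, so that a signal lost with FTO marks m6Am. The HEK293T list comes from wild-type cells, with 2 FTO (−) and 2 FTO (+) m6A-IP libraries by their labels. Heat shock was 2 h at 43 °C followed by 6 h of recovery, and hypoxia was 24 h in 1% oxygen. Both conditions were set against the same untreated libraries, which are labelled apart from the wild-type libraries. Each line holds a gene name and the outermost coordinates of a peak, so that introns count in its length. The stress lists also hold the authors' comparison with untreated cells, which was not used. No line gives a strand, a depth or values per replicate, so no error between replicates can be stated, and the intervals below are 95% Wilson intervals that cover counting error only.

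m6Am is a methylated adenosine at the transcribed base next to the cap, made by PCIF1 on transcripts that begin with A. Replication-dependent histone genes are short, lack introns in their main form and are expressed in S phase; their mRNAs end in a conserved stem-loop in place of a poly(A) tail. Most histone variants and chromatin regulators are made from spliced, polyadenylated mRNAs. The histones are therefore described apart from the regulators.

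The annotated start sites of the replication-dependent histones are shown first, because the expected place of m6Am is the start base. Each line gives 20 bases before the start, the start base in capitals and 9 bases after it, 5′ to 3′ on the transcribed strand, read from GRCh37. The windows are chr1:149804201-149804230 (plus strand) for HIST2H4B, chr12:14924056-14924085 (minus strand) for HIST4H4, chr6:26158330-26158359 (plus strand) for HIST1H2BD, chr6:27861183-27861212 (plus strand) for HIST1H2BO and chr6:27791850-27791879 (plus strand) for HIST1H4J.
HIST2H4B: aagacggtgctcgccttgacAgaagctgtc
HIST4H4: ctggtctgcgactggcaatcAcagtgggca
HIST1H2BD: acagggcctcggcgggagtgAttattttct
HIST1H2BO: gcataacccagcttgtcctcAttcttgtta
HIST1H4J: tgcctcaggccagaggcctcAcaaagcgtt
All 5 annotated start bases were A. HIST1H4J is in the hypoxia list alone, and the histone spans of the HEK293T list had A in 4 of 4. Over all spans of the HEK293T list, the nearest annotated start was A in 44.9%. The canonical start was A in 55.0% of the 60 replication-dependent histone genes without a HEK293T span, HIST1H4J among them. The base before the start was C in HIST2H4B, HIST4H4, HIST1H2BO and HIST1H4J and G in HIST1H2BD. The start base is that of the annotation, and the base at which reads began was not analysed here.

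The 4 histone spans of unstressed cells belonged to H4 and H2B genes and were alike in size and place. They measured 142 bp in HIST2H4B, 146 bp in HIST1H2BD, 148 bp in HIST4H4 and 176 bp in HIST1H2BO. The 5′ end of the span lay on the annotated start in HIST2H4B, HIST4H4 and HIST1H2BO and 1 bp away from it in HIST1H2BD. Each span ran through the 5′ UTR into the coding sequence, with 114 of 309 coding bases in HIST2H4B, 101 of 309 in HIST4H4, 97 of 378 in HIST1H2BD and 138 of 378 in HIST1H2BO. Their median length was 147 bp, and 1228.5 bp over all 1652 spans, which count introns. Within exons the medians were 146 bp and 356 bp. The RNA was fragmented and selected by its cap before the m6A-IP. The part of these steps in the size and place of the histone spans was not tested. Histone H4 and H2B are core components of the nucleosome. Of the 66 annotated replication-dependent genes counted, 4 had a span (6.06%), and 7.40% of all protein-coding genes had one. By family these were 2 of 15 H2B genes, 2 of 14 H4 genes, 0 of 17 H2A genes, 0 of 14 H3 genes and 0 of 6 H1 genes, and with so few spans no difference between families can be read from them. The study's methods start from total RNA, while the labels name poly(A) RNA as the molecule. These mRNAs lack a poly(A) tail, and whether the RNA used bears on their share was not tested, so nothing is read from its place beside the shares of polyadenylated genes.

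The 3′ stem-loop that defines this class was searched in the genome within 120 bases after the coding sequence, as a perfect stem of 6 bases that opens with GG around a loop of 4 bases that opens with TT. It was found in 59 of the 64 replication-dependent histone genes that have an annotated canonical transcript (92.2%), which 2 of the 66 lack, in 1 of 179 regulator and variant genes (0.559%) and in 63 of all 19892 protein-coding genes (0.317%). The stem is in capitals and the loop in lower case, on the transcribed strand of GRCh37.
HIST2H4B stem-loop: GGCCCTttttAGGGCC
HIST4H4 stem-loop: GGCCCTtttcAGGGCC
HIST1H2BD stem-loop: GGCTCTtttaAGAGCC
HIST1H2BO stem-loop: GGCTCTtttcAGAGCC
HIST1H4J stem-loop: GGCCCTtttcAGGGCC
The HEK293T spans ended before it, by 234 nt in HIST2H4B, 245 nt in HIST4H4, 321 nt in HIST1H2BD and 270 nt in HIST1H2BO. The spans of these genes lay at the capped end and did not reach the 3′ end. The annotated gene of HIST2H4B (7119 bp), HIST4H4 (3133 bp) and HIST1H2BD (13228 bp) extends far past the stem-loop through longer transcripts, while that of HIST1H2BO (467 bp) does not. Among the same 64 genes, 17 (26.6%) had an annotated length over 1000 bp. Which transcript form gave the signal cannot be told apart from these lists.

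Several histone genes have near-identical copies, which limits what a span can be assigned to. The sequence of the HIST2H4B span occurred at 2 places in the genome. It lies at H4C14, and the gene that now bears the deposited name, H4C15, begins 21245 bp beyond the end of the span with an identical coding sequence. The sequence of the HIST1H4J span of the hypoxia list also occurred at 2 places, and its coding sequence equals that of H4C12. The spans of HIST4H4, HIST1H2BD and HIST1H2BO occurred at 1 place each. Their coding sequences shared 84.5%, 93.7% and 92.1% of bases with the closest other histone gene of the same length.

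Promoter motifs were searched on both strands before the annotated start nearest to the 5′ end of the span. TATAA within 40 to 20 bases before the start was present in HIST4H4 (position −28) and HIST1H2BD (position −29), and in HIST1H4J of the hypoxia list (position −31). It occurred in 2 of 4 histone spans, in 0 of 33 regulator spans and in 2.92% of all spans with a gene. CCAAT within 120 bases before the start occurred in 2 of 4 histone spans (HIST1H2BD and HIST1H2BO), in 6 of 33 regulator spans (18.2%) and in 27.0% of all spans. The GC content of the 100 bases on each side of the start had a median of 50.2% in the histones, 63.5% in the regulators and 65.5% over all spans.

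Histone variants replace the core histones outside S phase. H2AFY and H2AFY2, which encode the macroH2A histones, had spans of 10772 bp (chr5:134724806-134735577, minus strand) and 23018 bp (chr10:71812357-71835374, plus strand), of which 497 and 785 bp lay in exons. The H2AFY span began on an annotated A start and the H2AFY2 span 13 bp downstream of an annotated G start, and neither reached the coding sequence. A pair of spans carried the name H3F3AP4, a pseudogene that the annotation places on chromosome 2, while both spans lie on chromosome 1. The 1695 bp span (chr1:226250408-226252102) lies at H3-3A, which encodes the variant H3.3, and begins 7 bp before an annotated A start. The 207 bp span (chr1:226271276-226271482) lies at the start of LINC01703, a long noncoding RNA gene. The windows below are chr5:134735568-134735597 (minus strand), chr1:226250395-226250424 (plus strand) and chr10:71812324-71812353 (plus strand), with the annotated start in capitals.
H2AFY: gtgtgtgatgataaggaatcActgtctaca
H3F3AP4 at H3-3A: ggatagcctcggtgtcagccAtctttcaat
H2AFY2: ccatagcgcgtttgtgcccaGttctgggga

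The remaining 33 spans were grouped by name as those of writers, erasers, readers and remodellers, so that members whose known substrates are not histones stay in their family. Counts of spans by role thus include the KMT2E-AS1 span, at LINC01004, as a writer. They also include the H3F3AP4 span at LINC01703 as a variant, and both genes are noncoding. Gencode places spans in 12 of 54 writer genes (22.2%, interval 13.2 to 34.9%), 10 of 40 eraser genes (25.0%, 14.2 to 40.2%), 5 of 40 reader genes (12.5%, 5.46 to 26.1%) and 5 of 34 remodeller genes (14.7%, 6.45 to 30.1%). Among the replication-dependent histones, 4 of 66 genes had a span (6.06%, 2.38 to 14.6%), and among the variants 3 of 11 (27.3%, 9.75 to 56.6%). Over all 20174 protein-coding genes the share was 7.40%. Expression of these genes was not analysed here, differences between roles were not tested, and the limit given above for the histone share holds here too. The writer count includes PRDM16, through a span that the list names MIR4251 and that is not among the 41.

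**Figure D1:**
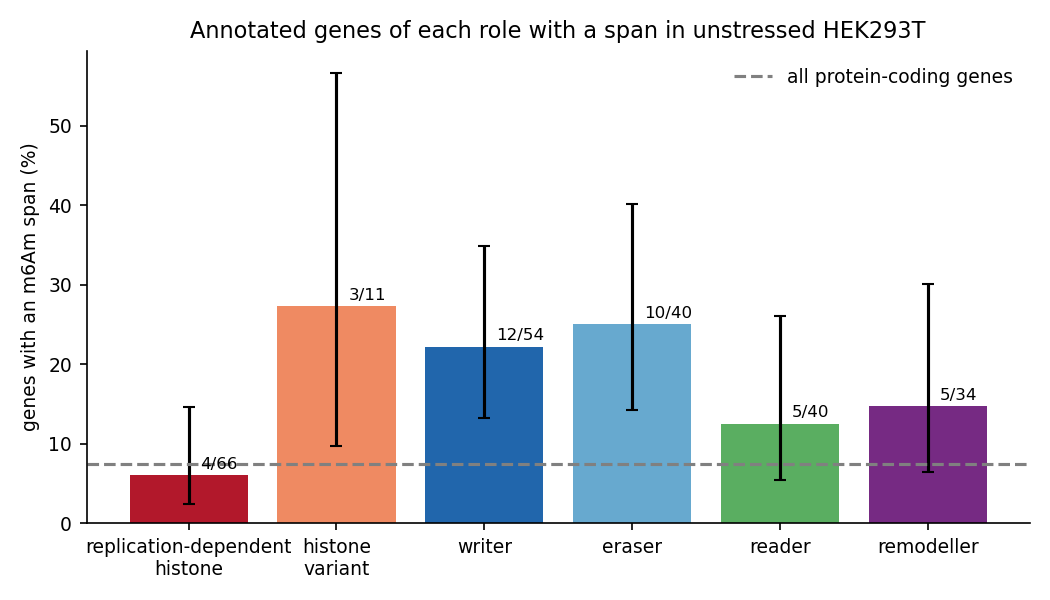
Share of annotated genes (%) with an m6Am span in unstressed HEK293T cells, by role, with 95% Wilson intervals and counts above the bars; the dashed line marks all protein-coding genes (7.40%). The shares run from 6.06% in the replication-dependent histones to 27.3% in the histone variants, with wide intervals.

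The sirtuins, deacylases that use NAD, had the highest share of genes with a span among the regulator families of the name pattern, with 4 of 7 genes: SIRT1, SIRT2, SIRT5 and SIRT7. The KAT acetyltransferases followed with 3 of 8 (KAT2A, KAT5 and KAT7). The KDM demethylases had spans in 4 of 19 genes, namely KDM2B, KDM4D, KDM5C and KDM6A. The PHF proteins, named for the PHD finger, had 4 of 19. No span was listed for the 8 annotated CBX genes, the 8 BRD genes, the 4 DNMT genes or the 3 TET genes. Over all protein-coding genes the share with a span was 7.40%. These families are small, and differences between them or from that share were not tested. Nothing is read from the families without a span.

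Writers add methyl or acetyl groups. Their spans had a median of 1254 bp, from 211 bp in KMT2E, a member of the KMT2 family, to 74419 bp in PRDM2. The PRDM2 span held 7474 exonic bp and began 3359 bp downstream of the nearest annotated start. PRMT5, the main symmetric arginine methyltransferase, had a span of 971 bp that began 177 bp before the nearest annotated start. The span named KMT2E-AS1 (451 bp) ended 126 bp short of that gene and lies at the 5′ end of LINC01004.

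Erasers had the lowest median span among the regulator roles, 330 bp (order-statistic interval 211 to 5067 bp). Their spans ran from 181 bp in KDM2B to 6238 bp in SIRT2. The median intervals of the regulator roles overlap, and differences in length were not tested. KDM2B, a demethylase that binds unmethylated CpG DNA, was the only regulator with more than 1 span: 181 bp and 329 bp, each beginning on an annotated start. The 5′ end lay within 100 bp of an annotated start in 11 of 11 eraser spans, 9 of 12 writer spans, 5 of 5 reader spans and 4 of 5 remodeller spans, against 82.0% of all spans, and the intervals of these roles overlap. SIRT1 and HDAC8 are deacetylases, and their 330 bp and 450 bp spans both reached the coding sequence.

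Readers bind marked histones, and remodellers move nucleosomes. The 5 reader spans ranged from 444 bp in PHF11 to 37027 bp in PHF21A, the latter with 1204 exonic bp. The 5 remodeller spans ranged from 90 bp in SMARCD3, a subunit of SWI/SNF complexes and the shortest member span, to 5883 bp in CHD3. The span of SMARCA5, the ISWI ATPase, began 239 bp before its nearest annotated start, and that of ARID1B lay wholly in coding sequence.

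**Figure D2:**
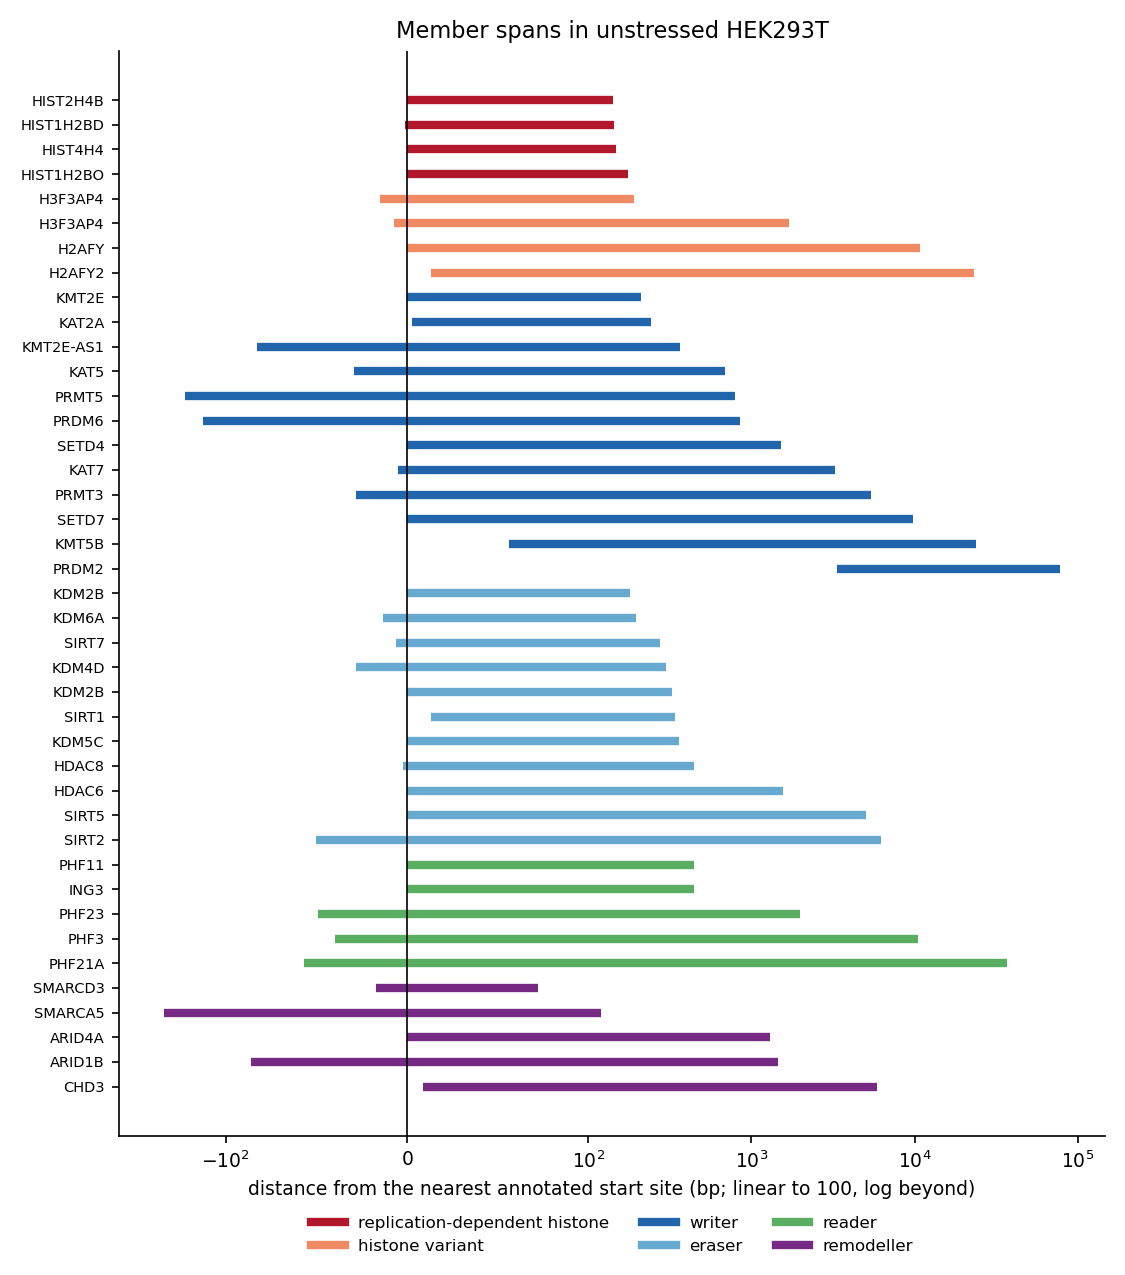
The 41 member spans of the HEK293T list as bars from 5′ to 3′ end, in bp from the annotated start site nearest to the 5′ end (linear to 100 bp, logarithmic beyond), coloured by role. The histone spans begin within 1 bp of the start and measure 142 to 176 bp, while the regulator spans run from 90 to 74419 bp.

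Across the 41 members the median span was 714 bp (order-statistic interval 330 to 1695 bp) and the median exonic part 444 bp, against 1228.5 bp and 356 bp over all spans. An annotated start lay inside 39 of 41 member spans (95.1%, interval 83.9 to 98.7%), against 94.0% of all 1646 spans with a gene. The exceptions were SIRT1 and KAT2A, whose spans began 13 bp and 3 bp downstream of the nearest start. The 5′ end lay within 10 bp of an annotated start in 22 of 41 (53.7%, interval 38.7 to 67.9%), against 44.1% of all spans. The median distance was 7 bp for members and 15 bp for all spans. The share with a start inside was near that of all spans, and no difference was tested.

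An annotated start with A lay inside 28 of 41 member spans (68.3%, interval 53.0 to 80.4%), against 75.9% of all spans. The count was 4 of 4 in the replication-dependent histones, 3 of 4 in the variants and 21 of 33 in the regulators (63.6%, interval 46.6 to 77.8%). Member spans held a median of 6 annotated starts and all spans 3, whose part in these shares was not tested. With the start nearest to the 5′ end alone, A was found in 15 of 41 members (36.6%) and 44.9% of all spans. By role, A stood at the nearest start in 0 of 12 writer spans (interval 0 to 24.2%), 5 of 11 eraser spans (21.3 to 72.0%), 2 of 5 reader spans, 2 of 5 remodeller spans, 2 of 4 variant spans and 4 of 4 histone spans (51.0 to 100%). For the nearest start, the writer interval lies below the histone interval and below the share of all spans. It overlaps those of the other roles, and differences between roles were not tested. An A start lay anywhere inside 8 of 12 writer spans (66.7%, interval 39.1 to 86.2%), against 75.9% of all spans. At the canonical start of these writers the base was A in KMT2E, KMT5B, KAT5, PRMT3, PRMT5, SETD7 and PRDM2. It was G in KAT7, SETD4, KAT2A, PRDM6 and LINC01004, where the KMT2E-AS1 span lies. The writer count thus depended on which annotated start was taken. The context BCA, in which C precedes the A and a base other than A precedes the C, occurred at a start inside 23 of 41 member spans (56.1%) and 55.2% of all spans.

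The canonical transcript gives 1 start per gene, whatever the number of annotated starts. Its start base was A in 18 of 32 regulator genes with a span (56.2%, interval 39.3 to 71.8%) and in 48 of 136 regulator genes without one (35.3%, interval 27.8 to 43.6%). Over all protein-coding genes it was A in 60.2% of those with a span and 49.9% of those without. The canonical start base was A in all 4 replication-dependent histones with a span and in 33 of the 60 without (55.0%, interval 42.5 to 66.9%). The intervals of regulators with and without a span overlap, and the difference was not tested.

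**Figure D3:**
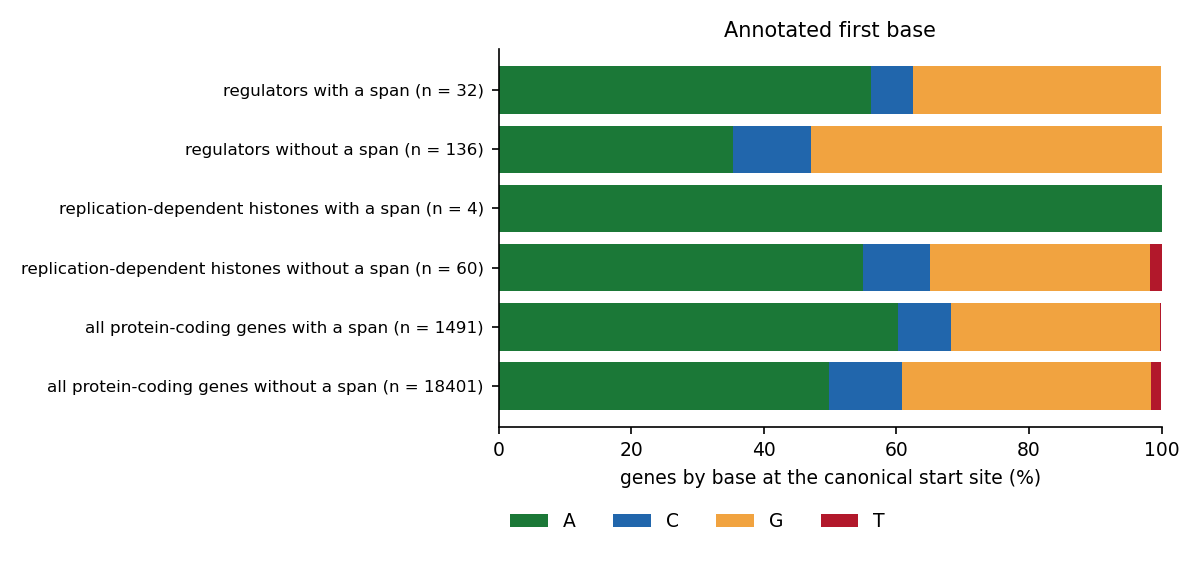
Base at the annotated canonical start site (share of genes, %) in genes with and without an m6Am span, for regulators, replication-dependent histones and all protein-coding genes. A is the start base in 56.2% of regulators with a span and 35.3% of those without.

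Hypoxia and heat shock address whether m6Am peaks differ under stress, and the stress lists hold the peaks that the authors called different from untreated cells. Only the membership and positions of these lists were used, and no direction is given. Both lists rest on the same untreated libraries, which are labelled apart from the wild-type libraries of the HEK293T list. Where a stress list differs from the HEK293T list, stress and library set cannot be told apart. The lists as used here may not hold every peak the authors called, and shares refer to these lists alone. A span of the hypoxia list overlapped 12 of 41 member spans by at least 1 bp (29.3%, interval 17.6 to 44.5%), against 13.5% of all 1652 spans. When 50% or more of each span had to be shared, the share was 17.1% for members and 10.8% for all spans, and among spans of at most 1000 bp it was 13.0% and 12.5%, while it was 26.8% and 13.4% for spans of the same gene name and 22.0% and 11.2% with 5′ ends within 50 bp. The distance from the share of all spans thus depended on the setting, and it was not tested. Seen from the hypoxia list, 10 of its 12 member spans overlapped a HEK293T span (83.3%), as did 220 of all its 390 spans (56.4%). The 12 HEK293T spans that overlapped the hypoxia list were HIST1H2BD, the writers KMT2E, KMT5B, KAT5, KAT7, PRMT3 and SETD4, the erasers HDAC8 and both KDM2B spans, the reader PHF23 and the remodeller ARID1B. The ARID1B overlap is of 181 bp with a span that the hypoxia list names MIR4466. By role, 6 of 12 writer spans, 3 of 11 eraser spans, 1 of 5 reader spans, 1 of 5 remodeller spans, 1 of 4 histone spans and 0 of 4 variant spans overlapped the hypoxia list.

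The start sites of the writers in the hypoxia list are shown for comparison with the histones. The windows are chr7:104654617-104654646 (plus strand) for KMT2E, chr11:67981286-67981315 (minus strand) for KMT5B, chr11:65479690-65479719 (plus strand) for KAT5, chr17:47865966-47865995 (plus strand) for KAT7, chr11:20409084-20409113 (plus strand) for PRMT3 and chr21:37432653-37432682 (minus strand) for SETD4, with the annotated start nearest to the 5′ end of the HEK293T span in capitals.
KMT2E: gccgcggccgccgccgccgcCgccgccatt
KMT5B: ctccgccgtcgggagcgcccGgcacagaac
KAT5: gaagtgacgtctcccagaggGgccggaagt
KAT7: tctctggcccgtaacgtcagGtgacgcgag
PRMT3: cgcacggcgcctcgaggccgGaagcgattg
SETD4: ctgcagcctccatcttggaaGcggccgccg
The nearest annotated start was C in KMT2E and G in the other 5. The canonical start of the same genes was A in KMT2E, KMT5B, KAT5 and PRMT3 and G in KAT7 and SETD4. An annotated A start lay elsewhere inside the span of KMT2E, KMT5B, KAT5, KAT7 and PRMT3, and none lay inside that of SETD4.

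The 5′ ends of the overlapping HEK293T and hypoxia spans were identical in 9 of 12 member pairs. They were identical in 74.2% of all 225 such pairs with a gene, and no difference was tested. KAT7, an acetyltransferase of histones H3 and H4, had the same 3276 bp span in both lists. KMT2E, KAT5 and SETD4 were each 30 bp longer at the 3′ end in the hypoxia list, and HDAC8 was 570 bp longer. HIST1H2BD measured 230 bp in the hypoxia list and 146 bp in the HEK293T list, and still ended 237 nt before the stem-loop. PRMT3 was shorter, with 2220 bp against 5399 bp, and the KMT5B span began 427 bp further downstream. A single KDM2B span of 2080 bp in the hypoxia list covered both HEK293T spans. The hypoxia span was longer in 7 of the 12 pairs, both KDM2B pairs with their shared hypoxia span among them, and shorter in 4. Over all 225 pairs with a gene it was longer in 81 (36.0%) and shorter in 100, and the difference was not tested.

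**Figure D4:**
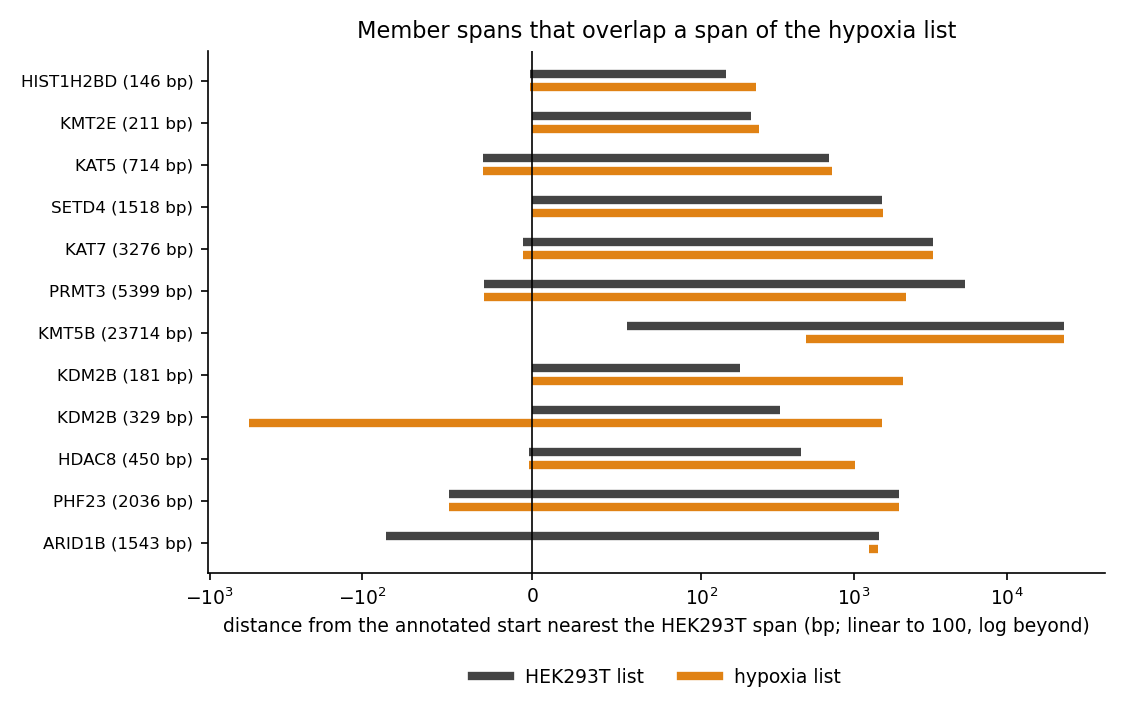
Member spans of the HEK293T list (grey) that overlap a span of the hypoxia list (orange), as bars in bp from the annotated start nearest to the HEK293T span (linear to 100 bp, logarithmic beyond). The 5′ ends coincide in 9 of the 12 pairs; KMT5B, ARID1B and the 329 bp KDM2B span differ.

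A pair of members in the hypoxia list had no overlapping span in the HEK293T list, which comes from separately labelled libraries. HIST1H4J, a replication-dependent H4 gene, had a span of 119 bp (chr6:27791903-27792021) that began 33 bp downstream of the annotated A start and lay wholly in coding sequence. CHD2, a chromodomain remodeller, had a span of 180 bp (chr15:93443551-93443730) that began on an annotated C start and touched no coding sequence. In the heat shock list, SIRT1 was the only member, with the same 330 bp span as in the HEK293T list (chr10:69644427-69644756, plus strand). That is 1 of 41 member spans (2.44%), against 2.54% of all spans.

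Other chromatin genes, whose names do not match these families, were counted from lists of 97 genes, chosen with earlier results of these data known. Of them 19 (19.6%) had a span in the HEK293T list, against 7.40% of all protein-coding genes. Polycomb complexes, which hold genes silent, had the most with 9 of 23: EZH1, EZH2, RBBP7, JARID2, MTF2, BMI1, PHC3, ASXL1 and ASXL2. Other remodellers and DNA methylation proteins had 5 of 15, other acetyltransferase and deacetylase complexes 2 of 21 (SAP18 and SAP30), and other histone methyltransferases and partners 1 of 15 (ASH2L). Histone chaperones had 1 of 12 (ASF1A), and the genes that process histone pre-mRNA 1 of 11 (SYMPK). The hypoxia list named 6 of the 97 (JARID2, PHC3, TRRAP, SIN3A, SAP30 and BPTF), against 1.75% of all protein-coding genes. The heat shock list named 0 of the 97, against 0.322% of all protein-coding genes. These differences were not tested, and expression of these genes was not analysed here.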

How the data were processed

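RNA above 200 nt was used. Reads were trimmed by the authors (Trim Galore 0.6.6, cutadapt) and aligned to hg19 (HISAT2), and the deposited peaks came from exomePeak and MACS2. An m6Am peak needed an FTO (−) to FTO (+) ratio above 2. How replicates were combined is not given in the sources used here. The last column of both stress lists holds the authors' own comparison of stressed and untreated cells and was not used. The labels name poly(A) RNA as the molecule, while the methods describe total RNA. The label of a PCIF1-KO library differs from its title; PCIF1-KO libraries were not used here.

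Spans were matched to Gencode release 44 on GRCh37 by name, current symbol (RefSeq) or, for 4 of 41 members, position. Positions count from 1: 244 starts fell on an exon's first base and 20 when shifted by 1 bp either way. Members and lists were chosen with earlier results of these data known. Named in full were the histones, variants and members in a stress list; of the rest, those with the shortest, longest or several spans per role. PRMT5, SMARCA5, KAT2A, PRDM16 and the KMT2E-AS1 span were described after their values were seen. So were the MBD4 span and the canonical start bases of the writers. Some genes of these families are not reported here. Helpers were tested on simulated data. Sequences were read with pyfaidx 0.9.0.4, intervals computed with SciPy 1.17.1 and NumPy 2.4.6, and plots drawn with Matplotlib 3.10.9, under Python 3.11.15.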

Additional observations from a re-analysis of the deposited data

How the results depend on the processing

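The alternatives changed which transcripts, spans and overlaps counted. Of 21 values under these alternatives, 18 stayed within the interval of the reported value, or within 1.5 times a count, and 3 moved. With the start nearest to the 5′ end alone, the share of members with an A start was 36.6% in place of 68.3%. The share of members also in the hypoxia list was 29.3%, and it was 17.1% when 50% or more of each span had to be shared and 13.0% among spans of at most 1000 bp. Over all spans these shares were 10.8% and 12.5%. The cause of these changes was not tested. No paired analysis was possible because each list holds a single set of peaks per condition and no result comes from a test. Depth per library is unknown, and counts of 4 or 5 spans per role leave wide intervals.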
